A study of Mus musculus with 62 samples.

Results

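Complex I of the mitochondrial respiratory chain, NADH:ubiquinone oxidoreductase, was followed through the transcripts of its nuclear-encoded subunits in mouse quadriceps. Members were all gene rows with a protein-coding symbol that starts Ndufa, Ndufb, Ndufc, Ndufs or Ndufv, without the Ndufaf assembly factors and without pseudogenes. This gave 38 genes of the 55487 rows in the deposited table, on 15 chromosomes, and all 38 passed the filter on low counts. Of them 36 encode structural subunits, 7 of the catalytic core and 29 accessory. The other 2 bear the family name only: Ndufa4, whose protein is now counted with complex IV (cytochrome c oxidase), and its paralogue Ndufa4l2.

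The study crossed voluntary wheel running with nicotinamide riboside (NR), a form of vitamin B3 from which cells make NAD, and with pterostilbene (PT), a methylated relative of resveratrol made by plants. Poly-A RNA was sequenced from the quadriceps of 62 male mice, 30 runners and 32 non-runners, in 8 groups. Non-runners with neither supplement, NR, PT or both, and runners with PT or both, had 8 animals each, whereas runners with neither supplement and runners with NR alone had 7. Every group held males only, and strain and age were not given in the labels used. The series title gives NR as intravenous, whereas sample labels record its presence or absence. Animals were killed in 2 cohorts over 8 days, and within each day all runners shared 1 time of day (morning or noon) and all non-runners the other, with the order changed between days.

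Complex I takes electrons from NADH in the matrix, passes them over a flavin and a chain of iron-sulfur clusters to ubiquinone, and pumps protons across the inner membrane. Its matrix arm holds the NADH-oxidising N module and the quinone-reducing Q module, and its membrane arm holds the pumps, whose core subunits are encoded by mitochondrial DNA. The nuclear-encoded accessory subunits surround this core and are needed for its assembly and stability. Skeletal muscle of endurance-trained animals is known for a high content of respiratory chain proteins.

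Totals ran from 5.64 to 30.8 M counts per library (median 16.1 M), and the 38 genes took 0.273 to 0.775% of them. The 6 skeletal muscle fibre markers, such as Acta1 and Ckm, summed to between 117000 and 162000 CPM (counts per M counts of the scaled library size) in every library, and none was at 0. One library stood apart: the runner with NR alone labelled replicate 1, killed on day 2. It had 24.1% of its counts in a list of 10 genes called ribosomal-RNA-like here, against a median of 0.055%. The list includes Lars2 and Rn7sk, which are not themselves ribosomal RNA genes. That library held the lowest value of all 62 libraries for 32 of the 38 complex I genes. Counts or median changes for the factors, their interactions and time of death are therefore also given without it. Levels, ranges, sums and most values of single members include it. Another 7 libraries lay above 5 times the median of that measure.

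Levels of the members differed widely in this muscle and little between animals. Per kb of exon, high median levels included 244 CPM per kb for Ndufa4 and 221 CPM per kb for Ndufb9, an accessory subunit of the distal membrane arm. The ranges over animals of both genes overlapped, at 149 to 316 and 123 to 304 CPM per kb. The lowest median was that of Ndufa4l2, 4.71 CPM per kb. Near it stood Ndufb2 at 10.9, Ndufb4 at 9.06 and Ndufab1, the mitochondrial acyl carrier protein, at 7.25 CPM per kb, again with overlapping ranges. Within a group the typical spread (SD) of a member was 0.18 on the log2 scale, from 0.15 to 0.24. The ratio of the highest to the lowest animal was at most 2.82, for Ndufa2, whose product sits in the matrix arm. Its lowest value, 45.0 CPM, was in runners with NR alone, the group of the library that stood apart. In non-runners Ndufa2 ran from 73.2 to 127 CPM.

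**Figure D1:**
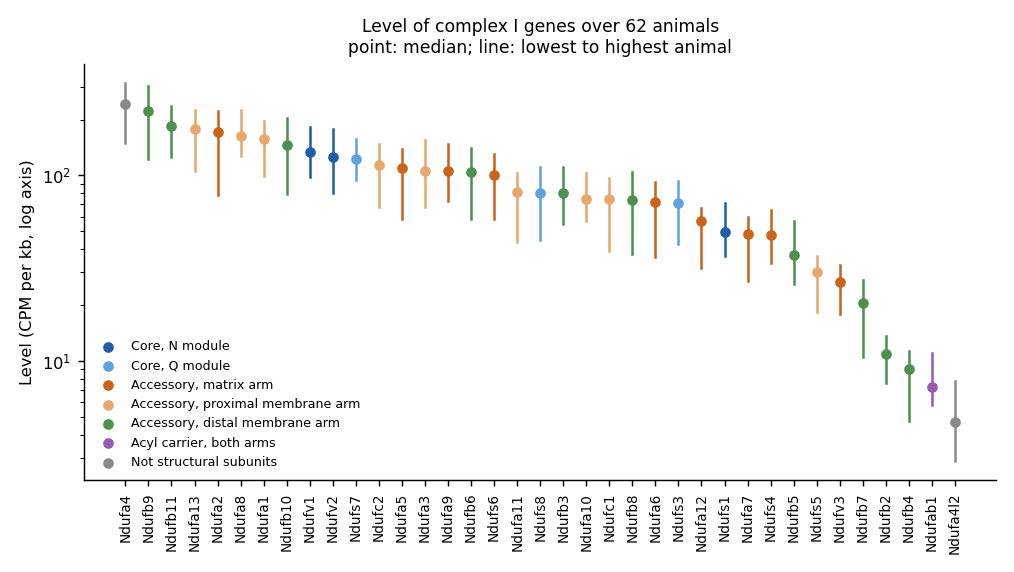
Level of complex I genes in CPM per kb of exon on a log axis, ordered from highest to lowest. Points are medians over 62 animals and lines run from the lowest to the highest animal, with colours for the role in the complex. Medians run from 244 for Ndufa4 down to 4.71 for Ndufa4l2, and the core subunits shown lie between 133 for Ndufv1 and 49.3 for Ndufs1.

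Core subunits did not share 1 level. In the N module, Ndufv1, which binds NADH and the flavin, had a median of 133, Ndufv2, which carries an iron-sulfur cluster next to it, 126, and Ndufs1, the largest core subunit, 49.3 CPM per kb. In the Q module, Ndufs7, which carries the last cluster before quinone, stood at 122, Ndufs8, a cluster-bearing subunit, at 80.4 and Ndufs3 at 70.7 CPM per kb. Lengths are exon unions as deposited, so a gene with long exons that few transcripts use has a low value per kb: Ndufs1 had 399 CPM over 8086 bases and Ndufb2 had 61.4 CPM over 5628 bases.

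Running was tested first, as the difference between runners and non-runners over the 4 supplement groups with equal weight, in a fit with the day and time of death as terms. Of the 38 complex I genes, 21 rose in runners and 0 fell (edgeR's quasi-likelihood test, adjusted p below 0.05, n = 30 runners and 32 non-runners). Over all 14549 genes tested, 14.0% passed in either direction, 8.41% rose and 5.58% fell. All 38 members had a log2 change above 0, from 0.03 to 0.24 with a median of 0.13, against a median of 0.01 over all genes, of which 55.1% were above 0. The changes were small, at most 1.18-fold. All 38 were also above 0 with RLE scaling, upper quartile scaling and DESeq2, where 16, 21 and 21 rose, and without the low-count filter, where 7 rose (median log2 change 0.12). The share of all genes that rose in each of these alternative fits is not given, so the differences in count need not be particular to the members. Bulk RNA cannot tell a higher level per muscle fibre from a different mix of cells, and p-values here rest on the spread between animals.

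Summed over the 38 genes, the level in runners had a lowest value of 3990, a median of 6400 and a highest value of 7970 CPM, with a mean of 6330 ± 765 (SD, n = 30). In non-runners the corresponding values were 4940, 5730 and 6530 CPM, with a mean of 5710 ± 448 (n = 32). The distributions overlapped: the upper end was made of runners, and the lowest animal was the runner whose library stood apart. Of 30 runners that could be set beside a non-runner of the same day and supplement, 21 had the higher sum. The 7 core subunits alone summed to a median of 2330 CPM in runners, against 2030 CPM without running.

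**Figure D2:**
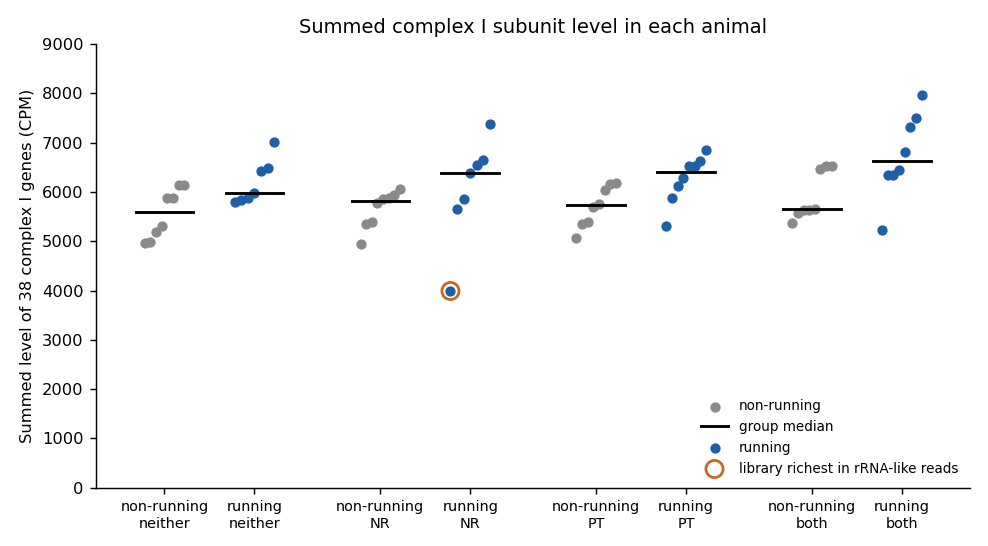
Summed level of the 38 complex I genes (CPM, axis from 0) in each of 62 animals, non-runners in grey and runners in blue, for each supplement group; black lines are group medians. Non-runners lie between 4940 and 6530 and runners between 3990 and 7970, where the lowest, circled, is the library richest in ribosomal-RNA-like reads.

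All 3 core subunits of the N module rose. Ndufv1 (chr19:4007384-4012759, minus strand, mm10) had the largest change of any member. It had 293 CPM in the lowest runner, 377 at the median and 481 in the highest, against 258, 318 and 400 CPM in non-runners. The highest 400 of the non-runners fell inside the upper part of the runners' range, and the lowest runner lay below the non-runners' median. The log2 change was 0.24 ± 0.05 (SE, edgeR adjusted p = 4.01e-04), and 23 of 30 runners lay above the matched non-runner.

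Ndufs1 (chr1:63143596-63176793, minus strand) had 335, 427 and 577 CPM in the lowest, median and highest runner and 298, 376 and 443 CPM in non-runners (log2 change 0.20 ± 0.04, edgeR adjusted p = 7.41e-04). Its runners extended well past the highest non-runner, and its lower ends were close. Ndufv2 (chr17:66078638-66101559, minus strand) changed less, by 0.13 ± 0.04 (edgeR adjusted p = 0.0327), with medians of 290 and 262 CPM. By contrast the small accessory subunit of the same module, Ndufv3, was at 0.09 ± 0.04 and did not pass (edgeR adjusted p = 0.0825).

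Of the Q module, Ndufs8 rose by 0.16 ± 0.05 (edgeR adjusted p = 0.0295), with medians of 111 and 98.4 CPM. Ndufs7 at 0.10 ± 0.04 and Ndufs3 at 0.09 ± 0.04 did not pass (edgeR adjusted p = 0.111 and 0.121). Whether the members of the module differ from each other was not tested.

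Among the 9 accessory subunits of the matrix arm 2 rose, with a median log2 change of 0.09. Ndufa9 (chr6:126821721-126849125, minus strand), which holds a bound NADPH beside the Q module, had 153, 236 and 311 CPM in the lowest, median and highest runner and 180, 210 and 254 CPM in non-runners (log2 change 0.19 ± 0.04, edgeR adjusted p = 0.00165). Ndufs4, whose loss in mice gives a Leigh-like encephalopathy, rose by 0.15 ± 0.04 (edgeR adjusted p = 0.0111). Ndufa7 and Ndufa12 were among the smallest values of the whole set, at 0.03 ± 0.04 each, with edgeR adjusted p = 0.712 and 0.654. Ndufa7 was higher in only 14 of 30 matched runners, the lowest count of any member, whereas Ndufa9 was higher in 24.

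In the membrane arm 5 of 9 proximal and 6 of 10 distal accessory subunits rose, each with a median log2 change of 0.13. Ndufa10 (chr1:92439010-92473860, minus strand), a proximal subunit with a nucleoside-kinase-like fold, had the smallest p of all members. Its lowest, median and highest runner had 200, 265 and 344 CPM, against 190, 226 and 264 CPM in non-runners, so the highest non-runner was just below the median runner. On the log2 scale the change was 0.21 ± 0.04 (SE, edgeR adjusted p = 2.68e-04), and 24 of 30 matched runners were higher.

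Ndufa8 (chr2:36036326-36049406, minus strand), a proximal subunit on the intermembrane space side, rose by 0.18 ± 0.04 (edgeR adjusted p = 0.00202), from a median of 128 to 151 CPM. Of the distal subunits Ndufb5 (chr3:32736990-32751566, plus strand) changed most, by 0.22 ± 0.05 (edgeR adjusted p = 9.09e-04), with 130, 202 and 285 CPM in the lowest, median and highest runner and 145, 177 and 209 CPM in non-runners. Its lowest runner was the library that stood apart, and its highest runners lay far above any non-runner. Exons of Ndufb5 share 616 bases with Mrpl47 on the other strand, and whether reads were assigned by strand is not given in the sources used here. Ndufb4, another distal subunit, was at 0.03 ± 0.04 (edgeR adjusted p = 0.713), and Ndufb6 at 0.10 ± 0.04 (0.0837) and Ndufb2 at 0.08 ± 0.05 (0.301) did not pass either.

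Ndufab1, which serves as acyl carrier in both arms and in mitochondrial fatty acid synthesis, rose by 0.13 ± 0.04 (edgeR adjusted p = 0.039). Both genes outside the structural set rose as well. Ndufa4 (chr6:11900292-11907497, minus strand) had 205, 354 and 437 CPM in the lowest, median and highest runner against 265, 324 and 403 CPM (log2 change 0.16 ± 0.04, edgeR adjusted p = 0.0128). Ndufa4l2 (chr10:127514967-127516686, plus strand), a gene known to be induced by hypoxia-inducible factor, had 3.59, 5.40 and 8.50 CPM in the lowest, median and highest runner, against 3.15, 4.81 and 6.81 CPM. Its log2 change was 0.21 ± 0.07 (edgeR adjusted p = 0.0256), the widest error of the set. At the threshold, Ndufb8 lay just inside with an adjusted p of 0.0469 and Ndufs6, a zinc-binding subunit, just outside with 0.0552 (edgeR).

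**Figure D3:**
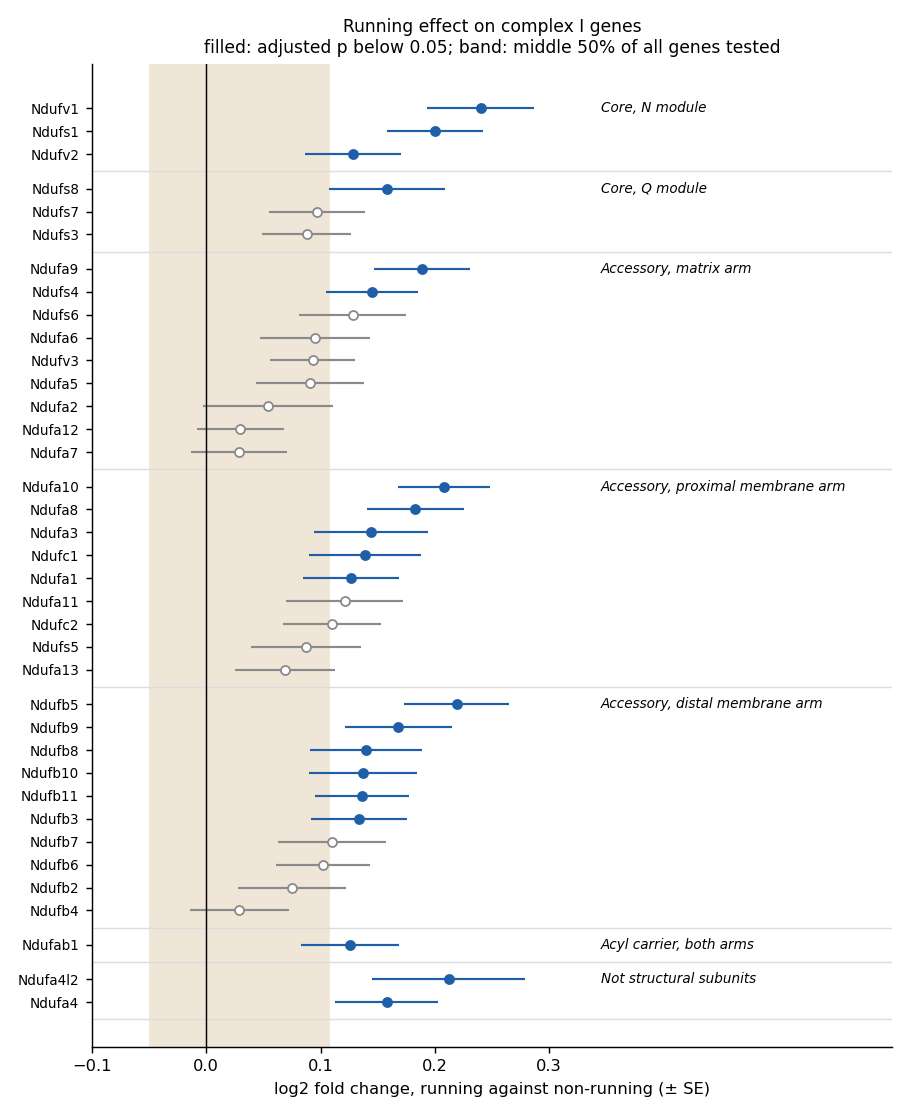
Log2 fold change of complex I genes in runners against non-runners, with bars for ± SE, grouped by role; filled blue points have an edgeR adjusted p below 0.05 and the band spans the middle 50% of all genes tested. All points lie right of 0, from 0.03 for Ndufa7 to 0.24 for Ndufv1, and all 3 core subunits of the N module are filled against 2 of 9 accessory subunits of the matrix arm.

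The count of 21 moved with the libraries used. Without the library that stood apart, 30 of 38 rose, the original 21 among them, with a median log2 change of 0.14 (7.81% of all genes rose in that fit). The 8 that still missed were Ndufa2, Ndufa7, Ndufa12, Ndufa13, Ndufb2, Ndufb4, Ndufs5 and Ndufs7. In that fit Ndufv1 changed by 0.25 ± 0.05, Ndufb5 by 0.23 ± 0.04, Ndufa10 by 0.21 ± 0.04 and Ndufs1 by 0.20 ± 0.04. Leaving out that library alone was not planned. The planned fit left out all 8 libraries rich in ribosomal-RNA-like reads. There 28 of 38 rose, with a median log2 change of 0.15, and 5.68% of all genes rose.

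Runners and non-runners of 1 day were killed in separate sessions, so session and running can be told apart only over days. Counts summed per session, 16 sums in all, gave 19 members higher, a median log2 change of 0.13 and 5.20% of all genes higher. Leaving out 1 day at a time left between 5 and 27 members higher. The counts were 5 without day 1, 7 without day 4, 9 without day 3 or day 5, 11 without day 7 and 13 without day 8. The share of all genes that rose in each of these fits is not given, so the lower counts need not be particular to the members. Ndufa9, Ndufa10, Ndufb5, Ndufs1 and Ndufv1 passed in all 8 of these fits, and 9 members passed in none.

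The cohorts gave changes of like direction and unequal counts. In cohort 1 alone 7 of 38 passed by edgeR, with a median log2 change of 0.15. In cohort 2 alone 0 passed by edgeR, with a median of 0.09 and 37 of 38 above 0. Each fit held 31 libraries, and the share of all genes that passed in it is not given beside these counts. Ndufv1 was at 0.26 ± 0.07 in cohort 1 and 0.20 ± 0.05 in cohort 2, and Ndufa10 at 0.23 ± 0.06 and 0.17 ± 0.05. Ndufa4l2 was the exception in size, at 0.41 ± 0.09 in cohort 1 and 0.01 ± 0.08 in cohort 2. The test of that difference gave -0.40 ± 0.12 and did not pass (edgeR adjusted p = 1.00), nor did any other member (0 of 38, 2 at an unadjusted p below 0.05, edgeR only).

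Promoter sequence was read for the members, since many of them rose together. RefSeq start sites (build GRCm38.p6) matched 33 of the 38 genes with 35 windows of 300 bases, 250 before the start and 50 after it, and both strands were searched. The core GCGCATG of the site known for nuclear respiratory factor 1 (NRF-1), a regulator of respiratory chain genes, was in 14.3% of these windows and in 3.91% of all 32851 windows. The 100 bases before the start are shown for the 4 genes that hold it there, 5′ to 3′ on the gene's strand, with the match in capitals (CATGCGC is the same core read on the other strand).
Ndufa8, chr2:36049339-36049438, minus strand: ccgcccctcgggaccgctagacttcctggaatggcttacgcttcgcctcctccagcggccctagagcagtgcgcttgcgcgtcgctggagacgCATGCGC
Ndufa11, chr17:56717662-56717761, plus strand: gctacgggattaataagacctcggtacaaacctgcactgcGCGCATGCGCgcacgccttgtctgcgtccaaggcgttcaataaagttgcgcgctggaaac
Ndufa6, chr15:82354292-82354391, minus strand: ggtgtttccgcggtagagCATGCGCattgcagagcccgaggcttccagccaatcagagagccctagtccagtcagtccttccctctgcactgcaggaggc
Ndufb6, chr4:40279422-40279521, minus strand: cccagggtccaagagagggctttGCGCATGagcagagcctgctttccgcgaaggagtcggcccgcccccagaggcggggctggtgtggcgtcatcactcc

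In Ndufa11 the core is read on both strands over 10 bases that overlap. Ndufb8 holds it after the start. Of the 5 genes with the core 2 rose with running and of the 28 without it 15, with median log2 changes of 0.12 and 0.13. These matches are descriptions of sequence and were not tested as sites.

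The core AAGATGG, known from sites of the factor YY1, was in 20.0% of the member windows and in 6.34% of all windows. All 7 matches were on the transcribed strand, began 23 to 39 bases after the start, and had their ATG at the annotated start codon. A match on that strand after the start was in 1.30% of all windows. That share was taken over every window, whether or not a start codon lay in it. The 30 bases around each match show it beside the start codon, with the motif in capitals.
Ndufa9, chr6:126849098-126849127, minus strand: gcattgtgggagAAGATGGcggccgccgtc
Ndufs4, chr13:114388045-114388074, minus strand: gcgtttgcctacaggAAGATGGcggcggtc
Ndufa3, chr7:3617383-3617412, plus strand: gccgccaagaacAAGATGGccgggagtaag
Ndufb8, chr19:44555393-44555422, minus strand: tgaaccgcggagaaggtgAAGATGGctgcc
Ndufc1, chr3:51408916-51408945, minus strand: agcctgcggaacAAGATGGcgccgtccgta
Ndufs6, chr13:73328433-73328462, minus strand: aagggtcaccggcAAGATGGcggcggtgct
Ndufs7, chr10:80249461-80249490, plus strand: aaggccgaggccAAGATGGcggcgctggcg

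The first 5 of these genes rose with running, whereas Ndufs6 and Ndufs7 did not pass. Their median log2 change was 0.14, against 0.12 for the 26 matched genes without the motif, of which 12 rose. The core CCGGAAG of ETS factors was in 11.4% of member windows and 8.86% of all windows, and AAGGTCA, the core for oestrogen-related receptors, in 8.57% and 4.72%. The 3 genes with the latter, Ndufb2, Ndufb4 and Ndufs5, all missed the threshold for running.

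Other genes of the pathway were counted beside the members. Of 17 tested complex I assembly factors 4 rose with running and 0 fell, with a median log2 change of 0.04: Acad9 by 0.11 ± 0.03, Ndufaf1 by 0.14 ± 0.04, Ndufaf7 by 0.13 ± 0.04 and Ndufaf6 by 0.13 ± 0.04 (edgeR adjusted p = 0.00187, 0.00816, 0.0103 and 0.0224). Of the 6 tested complex I subunits encoded in mitochondrial DNA 5 rose, with a median of 0.17, among them mt-Nd4 by 0.20 ± 0.05 and mt-Nd1 by 0.17 ± 0.04. Poly-A selection can affect how such transcripts are captured. Of 38 tested nuclear-encoded subunits of complexes II to V 28 rose and 0 fell, with a median log2 change of 0.16. By complex this was 4 of 4 for complex II, 6 of 9 for complex III, 8 of 11 for complex IV and 10 of 14 for complex V. No test compared these lists with complex I.

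Markers of cell types moved with running too. All 8 endothelial markers, such as Cdh5 and Pecam1, rose, with a median log2 change of 0.27, and their summed level ranged from 249 to 493 CPM over runners, against 235 to 335 CPM over non-runners. Of macrophage markers 2 of 6 rose, of fibroblast markers 2 of 5, of adipocyte markers 1 of 5 and of slow and oxidative fibre markers 1 of 6 (Myl2). Of Schwann cell markers 1 of 4 fell. The 6 muscle fibre markers had a median log2 change of -0.08, and 0 passed by edgeR. The summed ranges of runners and non-runners overlapped for every list. They were 112 to 287 and 85.5 to 263 CPM for macrophages, and 872 to 1910 and 577 to 1880 for fibroblasts. For adipocytes they were 125 to 543 and 109 to 537, and for Schwann cells 16.5 to 31.5 and 18.2 to 36.3. The list of slow and oxidative fibres had 132 to 1890 and 86.4 to 1100. Most of that sum was Myh2, whose mean was 679 CPM with running and 474 CPM without. Its other markers, such as Myh7 and Myl2, averaged at most 4.88 CPM in runners, so the sum mainly follows Myh2. No marker was at 0 in all libraries, and the part of these cell types in the complex I result was not tested.

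NR gave no called member. By edgeR 0 of 38 passed and 1 was at an unadjusted p below 0.05, and by DESeq2 0 passed and 2 were. Only 0.0206% of all genes passed for NR. The share of all genes at an unadjusted p below 0.05 is not given here or for the comparisons below. Members that move together are not separate results. Log2 changes were above 0 for 36 of 38, with a median of 0.03 and a range from -0.05 to 0.16, against a median of 0.00 over all genes. The largest was Ndufa3, a small proximal membrane arm subunit, with 68.8, 114 and 159 CPM in the lowest, median and highest of 31 animals with NR and 77.3, 104 and 119 CPM in 31 without. Its log2 change was 0.16 ± 0.05 (edgeR adjusted p = 0.551), and 22 of 30 matched animals with NR were higher.

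Ndufa2 at 0.10 ± 0.06 and Ndufv3 at 0.07 ± 0.04 came next for NR, and Ndufa4l2 had the lowest value, -0.05 ± 0.07. Without the library that stood apart, which is an NR library, 0 passed by edgeR and 9 were at an unadjusted p below 0.05. The median log2 change was then 0.06, and Ndufa3 was at 0.18 ± 0.04.

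PT likewise gave no called member. By edgeR 0 of 38 passed and 6 were at an unadjusted p below 0.05, by DESeq2 0 and 5, and 0.0% of all genes passed. For PT too, the share of all genes at that unadjusted level is not given. Log2 changes were above 0 for 37 of 38, with a median of 0.07, against -0.00 over all genes, of which 48.4% were above 0. Ndufab1 was the largest, with 42.5, 51.8 and 76.7 CPM in the lowest, median and highest of 32 animals with PT and 40.0, 48.4 and 61.9 CPM in 30 without. Its log2 change was 0.13 ± 0.04 (unadjusted p = 0.00284, edgeR adjusted p = 1.00), and 20 of 30 matched animals with PT were higher.

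Ndufc1 at 0.12 ± 0.05 and Ndufb3 at 0.11 ± 0.04, both membrane arm subunits, came after Ndufab1 for PT. The PT values moved with the libraries used: the median log2 change was 0.05 without the library that stood apart, which had no PT, and 0.02 without all 8 libraries rich in ribosomal-RNA-like reads. In the latter fit 1 member was at an unadjusted p below 0.05 and 31 were above 0. For both supplements most members had values above 0, and no member passed.

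**Figure D4:**
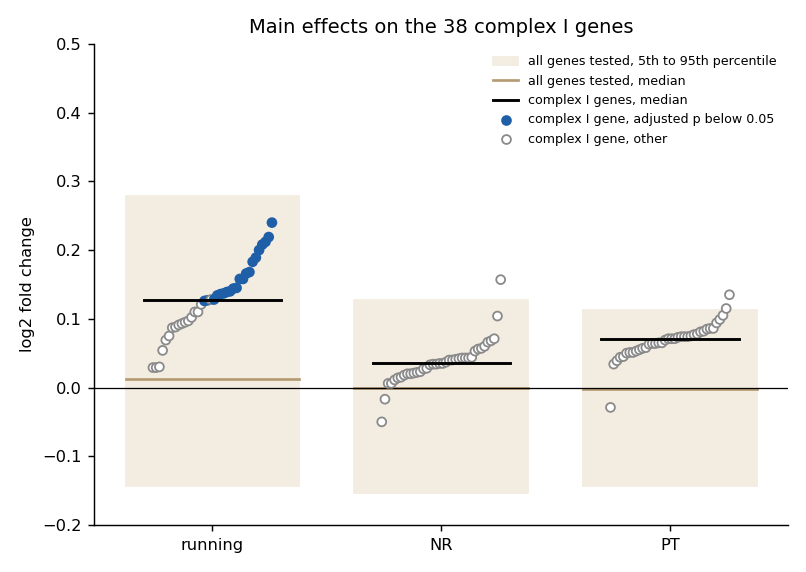
Log2 fold changes of the 38 complex I genes for the main effects of running, NR and PT, ordered within each; black lines are their medians (0.13, 0.03 and 0.07). Shaded boxes span the 5th to 95th percentile of all genes tested with their median as a brown line, and filled points have an edgeR adjusted p below 0.05, which 21 genes reach for running and 0 for NR or PT.

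No interaction between factors was called. For running by NR, running by PT, NR by PT and all 3 factors together, 0 of 38 passed by edgeR or DESeq2, 0 were at an unadjusted p below 0.05 by edgeR, and 0.0% of all genes passed. The median log2 difference was -0.01 for running by NR, with 16 values above 0, and 0.02 for running by PT, with 25 above 0. Without the library that stood apart both medians changed sign, to 0.04 (34 above 0) and -0.03 (8 above 0). The median was 0.08 for NR by PT, where all 38 values were above 0, and 0.10 for the 3 factors, where 36 were. Without that library these medians were 0.03 (33 above 0) and 0.03 (24 above 0). The 6 markers of slow and oxidative fibres had larger values in the same terms, all above 0, with medians of 1.11 for NR by PT and 2.19 for the 3 factors. By edgeR 0 of these 6 passed in either, and 1 and 3 were at an unadjusted p below 0.05. For running by NR and running by PT 5 of the 6 were above 0, with medians of 0.18 and 0.11. Apart from Myh2 these markers had low levels, with means of at most 4.88 CPM in runners. Their part in the members' interaction values was not tested.

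Single members had errors that were large beside their interaction values. Ndufa4l2 had 0.23 ± 0.13 and Ndufa10 0.07 ± 0.08 for running by NR, and Ndufab1 had 0.11 ± 0.09 and Ndufb3 0.08 ± 0.08 for running by PT. Ndufb3 had 0.15 ± 0.08 and Ndufs3 0.12 ± 0.08 for NR by PT, and Ndufb6 had 0.30 ± 0.16 and Ndufb2 0.21 ± 0.19 for the 3 factors.

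Within single supplement groups, running was tested on 7 or 8 runners against 8 non-runners. With neither supplement 0 of 38 passed by edgeR and 11 were at an unadjusted p below 0.05 (median log2 change 0.15, 0.0% of all genes passed). With NR these were 0 and 3 (0.08), where 0.447% of all genes passed. With PT they were 0 and 6 (0.11), where 0.00687% of all genes passed, and with both supplements 1 and 16 (0.16). Without the library that stood apart the counts at an unadjusted p below 0.05 were 17 with neither (median 0.14), 22 with NR (0.16), 10 with PT (0.10) and 22 with both (0.15), and 0, 0, 0 and 1 passed by edgeR. Beside these unadjusted counts the share of all genes is not given, and members that move together are not separate results. DESeq2 called 0 members with neither, NR or PT and 2 with both. The member that passed was Ndufa10, at 0.29 ± 0.08 (edgeR adjusted p = 0.0416), in a comparison where 1.70% of all genes passed. With both supplements 0 members passed when the purification pool was added, with the session as a random block (limma), without the low-count filter or in cohort 2 alone. Leaving out single days gave from 0 to 3. With both supplements the 6 slow and oxidative fibre markers had a median log2 change of 1.29 for running. By edgeR 0 of them passed and 4 were at an unadjusted p below 0.05. Their median was 0.96 with neither supplement, with all 6 above 0. It was 0.21 with NR and -0.01 with PT, with 3 above 0 in each. Of the 38 members 36 were above 0 with NR and 37 with PT. Apart from Myh2 these markers had low levels, with means of at most 4.88 CPM in runners. Their summed level ran from 183 to 1490 CPM in runners with both supplements and from 109 to 1010 CPM in the non-runners, and their part in the members' values was not tested. Whether running acts differently between the groups is what the interactions above tested.

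In runners with both supplements the animals spread widely. Ndufa10 had 209, 287 and 344 CPM in the lowest, median and highest of these 8 animals, against 208, 231 and 261 CPM in non-runners with both. Ndufs1 had 349, 467 and 577 CPM against 349, 370 and 443 CPM, so that the lowest animals of both groups were level. The highest value of 25 of the 38 members over all libraries was in 1 animal of this group, killed on day 2.

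In this supplement group runners stood higher in cohort 1. There each of the 4 runners with both supplements had a higher complex I sum than the matched non-runner, with log2 ratios from 0.26 to 0.50, and all 38 genes were higher in each pair. In cohort 2 the ratios ran from -0.32 to 0.29 and 1 of 4 was above 0. On day 6, 0 of 38 genes were higher in the runner. The median log2 change of the members for running in this supplement group was 0.36 in cohort 1 and -0.05 in cohort 2. Tested as a difference between cohorts, all 38 were below 0 with a median of -0.40 (all genes 0.00). By edgeR 0 of 38 members and 0 of 14549 genes passed. At an unadjusted p below 0.05 were 27 members, and the share of all genes at that level is not given. Members moved together within pairs, so such counts are not counts of separate results. Ndufa8 had the smallest p, at -0.52 ± 0.15 (edgeR adjusted p = 0.48). In the other supplement groups the median difference between cohorts was 0.07 with neither, 0.18 with NR and -0.03 with PT. Without the library that stood apart these were 0.07, 0.03 and -0.03, and the difference with both supplements was -0.39, where 0 passed by edgeR and 34 were at an unadjusted p below 0.05. This comparison was chosen after the values were seen.

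**Figure D5:**
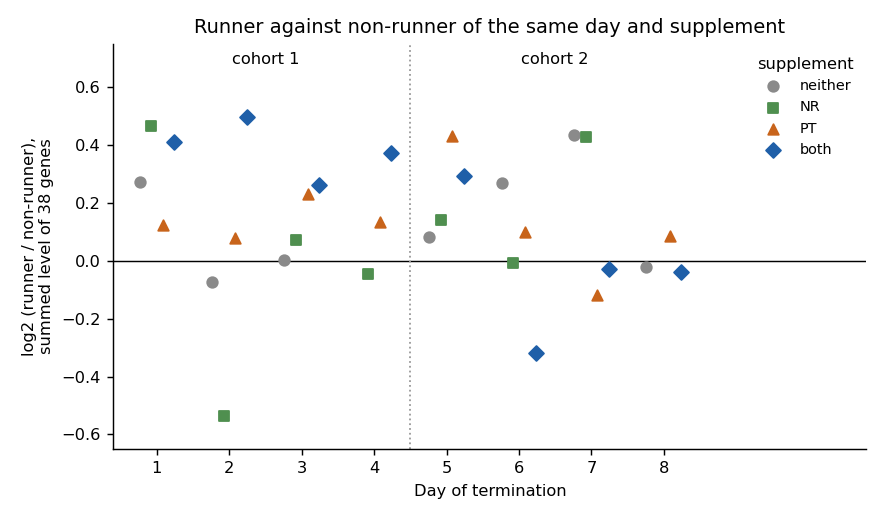
Log2 ratio of the summed level of the 38 complex I genes in a runner over the non-runner of the same day and supplement, by day of termination, for 30 pairs; symbols give the supplement and the dotted line parts the cohorts. Pairs with both supplements lie between 0.26 and 0.50 on days 1 to 4 and between -0.32 and 0.29 on days 5 to 8, and the lowest point (-0.54) is the pair with the library that stood apart.

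Time of death, noon against morning, gave 0 of 38 members by edgeR or DESeq2, 0 at an unadjusted p below 0.05 by edgeR, and 0.0% of all genes. The median log2 change was -0.01, with 11 above 0. Without the library that stood apart it was -0.03, with 2 above 0, 0 passing by edgeR and 1 at an unadjusted p below 0.05. Ndufc2, a proximal membrane arm subunit, had the smallest p, at -0.06 ± 0.04, followed by Ndufb5 at -0.04 ± 0.05 and Ndufa4l2 at -0.06 ± 0.07.

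The symbol rule left out 5 rows that share the name stem. Of these 4 are processed pseudogenes (Ndufa11b, Ndufb4c, Ndufs6b and Ndufab1-ps) with means of 0.81 to 8.29 counts. The fifth, Ndufb1-ps, is a non-coding entry in GENCODE M21 and the distal subunit Ndufb1 in RefSeq, with a mean of 1629 counts. Its log2 change for running was 0.12 ± 0.05 (edgeR adjusted p = 0.117), inside the range of the members.

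Some members may not be fully separated from other genes by their reads. Of the 52-base windows of each member's transcripts, the median member shared 2.47% with another gene on either strand. Of the members 15 shared none and 9 shared over 10%. Counting by strand would separate overlaps on the other strand, such as Ndufa13 with Tssk6 and Ndufb5 with Mrpl47. That setting is not given in the sources used here. The highest shares were 31.3% for Ndufb6, with Smim27, 28.2% for Ndufa13, with Tssk6 and a pseudogene, and 21.2% for Ndufs5, with BC002163. Ndufv1, Ndufa8 and Ndufa10 shared none, while Ndufs1 shared 4.16% and Ndufb5 11.1%.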

How the data were processed

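The authors deposited raw counts of reads for each gene in 62 libraries. Reads were aligned with STAR 2.7.3a to mm10 and counted with featureCounts 2.0.0, per the submitters' processing notes. Neither annotation release nor strand setting is given in the sources used here. Symbols came from GENCODE M21 for 99.8% of rows. The complex I genes and all gene lists were chosen with earlier results of these data known.

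Genes were filtered with filterByExpr (minimum count 10, total 15) and scaled by TMM. edgeR 4.0.16 in R 4.3.3 fitted the 8 groups, 8 days and time of death to 14549 genes (quasi-likelihood F test, two-sided, 46 residual degrees of freedom). P-values were adjusted by Benjamini-Hochberg over all genes of a contrast, and genes were called below 0.05. Levels are CPM on TMM-scaled library sizes. DESeq2 1.42.0 and limma 3.58.1 gave alternatives. The fit was tested on simulated data for running, with 50 genes changed at each fold and animals drawn independently. It recovered 22% of genes changed 1.1-fold and 96% of those changed 1.25-fold, with 14 false calls among 14356 genes. Changes as small as those of many members can therefore be missed, and a count of 0 does not exclude them. Named members were the 6 with the smallest p among those called, or the 3 with the smallest p where none was called, the largest rise and fall of each main effect, the core subunits, Ndufa4, Ndufa4l2, the 2 highest and 2 lowest per kb and the 2 with the smallest p of each interaction. Others named for a role, a sequence or a threshold were chosen after their values were seen. One item is not reported here by name; counts, medians and sums over the 38 genes include every member.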

Additional observations from a re-analysis of the deposited data

Results flagged for a closer look

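For each named member and for the summed levels, 184 sets of 7 or 8 animals of 1 group were searched for an animal whose gap to its neighbour was large against the range of its group, and 9 were found; chance gives about 1 in 20. In runners with NR alone 6 of them came from 1 animal, replicate 1 of day 2, whose library held 24.1% ribosomal-RNA-like reads. It was the lowest of its group for Ndufa4 at 205 CPM (next 333), Ndufb3 at 41.9 (next 58.5), Ndufb6 at 38.3 (next 62.4), Ndufc1 at 58.4 (next 104), Ndufs3 at 93.4 (next 143) and Ndufv3 at 57.2 CPM (next 85.0). The other 3 came from different animals. Ndufb2 was lowest at 49.0 CPM (next 64.2) in the runner with both supplements of day 6, the same day on which none of the 38 genes was higher in that runner than in its matched non-runner. Ndufc2 was lowest at 70.5 CPM (next 84.8) in a non-runner with both supplements of day 1. Ndufs1 was highest at 519 CPM (next 433) in a runner with neither supplement of day 7.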

How the results depend on the processing

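For running, 21 members were called. Counts under the settings below are given without the share of all genes in the same fit. The count of members was 7 without the low-count filter, 7 in cohort 1 alone, 0 in cohort 2 alone and 5 to 27 when 1 day was left out. It was 16 to 30 under the other settings run: RLE or upper quartile scaling, DESeq2, a minimum count of 50, groups only, purification pool or RIN added, a random block for session, sums per session, and leaving out libraries rich in ribosomal-RNA-like reads. Replicate numbers did not pair the animals: over 211 pairs of the same number the median correlation of deviations was 0.01 and 15.2% exceeded 0.1. With the replicate block 23 members were called for running, and no other count changed. In runners with both supplements, 1 member was called. This became 2 with DESeq2, 0 without the filter, 0 with purification pool, 0 with a random block for session, 2 in cohort 1 alone, 0 in cohort 2 alone, 2 without libraries rich in ribosomal-RNA-like reads, and 0 to 3 when 1 day was left out. Counts of 0 for the other comparisons stayed at 0 in each setting run. Signs turned when 1 day was left out or 1 cohort was used. For running, Ndufa2 ranged from -0.004 to 0.085, Ndufa7 from -0.015 to 0.046 and Ndufb4 from -0.001 to 0.058 when 1 day was left out, and Ndufb4 was at -0.062 in cohort 2 alone. For NR, Ndufa4l2 was at 0.051 in cohort 1 alone. For PT, Ndufa4l2 ranged from -0.068 to 0.013, and for noon from -0.134 to 0.000, when 1 day was left out. For noon, Ndufb5 was at 0.078 and Ndufc2 at 0.051 in cohort 1 alone. The cause was not tested.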
